A study of Mus musculus with 6 samples.

Results

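The B-cell receptor complex and its proximal signaling genes were examined as a group of 9 named genes, which are Cd79a, Cd79b, Cd22, Lyn, Blk, Syk, Blnk, Btk and Plcg2. They were chosen by name from the known makeup of the pathway, with earlier results of these data known. All 9 were found among the 38293 genes of the deposited RNA-sequencing file. The tumors came from Eμ-Myc mice, in which the immunoglobulin heavy chain enhancer drives a Myc transgene in the B lineage, on a strain labelled C57BL6. The Eμ-Myc miR-146a-/- group (miR-146a-deficient) held 2 tumors, both from the thymus of mice labelled female, at 11 weeks (replicate 1) and 10 weeks (replicate 2). The Eμ-Myc miR-146a+/+ group (miR-146a-sufficient) held 4 tumors from mice labelled male. Of these, replicates 1 and 2 came from neck nodes at 18 and 16 weeks, and replicates 3 and 4 from the thymus at 10 weeks each. All 6 tumors carried the Myc transgene, and the microRNA was missing from the whole animal rather than from B cells alone. Genotype and labelled sex cannot be told apart, and neither can neck node and older age.

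A B cell binds antigen through membrane immunoglobulin, which cannot signal by itself. Its partners Cd79a and Cd79b carry tyrosine motifs that are phosphorylated by the SRC family kinases Lyn and Blk. The kinase Syk docks on these motifs and, together with Btk, assembles on the adaptor Blnk to activate the phospholipase Plcg2, which releases calcium and turns on protein kinase C. Cd22 sits beside the receptor and restrains it, because Lyn phosphorylates its tail and the tail then recruits the phosphatase SHP-1. Eμ-Myc tumors arise from precursor or mature B cells, which need this pathway for development and survival.

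The microRNA that separates the groups is shown with the stretches of the members' 3′UTRs that match its seed, because a seed match is the feature by which a microRNA pairs with a transcript. The mature miR-146a-5p is encoded on the minus strand of chromosome 11 from 43374435 to 43374456 (GRCm38.p6, RefSeq). Its seed, bases 2 to 8, is in capitals, and capitals in the other lines mark the bases that match the seed, or its first 6 bases followed by an A. The other sequences are from the 3′UTRs of the GENCODE M21 annotation, written as DNA on the transcript strand.
mmu-miR-146a-5p: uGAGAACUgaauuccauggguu
Cd79a: taggttcaAGTTCTCAcctgacca
Cd79b: gagtaaggAGTTCTCtggggata
Syk, upstream match: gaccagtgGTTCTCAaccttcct
Syk, downstream match: gagcaagaAGTTCTCtgctgagc
Plcg2: acttccctGTTCTCAgcctcatt
The search was for AGTTCTC and GTTCTCA on the transcript strand, and where they overlapped as AGTTCTCA they were counted as 1 match of 8 bases. Cd79a held the only 8-base match among the members, starting at base 426 of a 653-base 3′UTR. Cd79b had its match at base 203 of 466, Plcg2 at base 272 of 315, and Syk had 2, at bases 1644 and 2129 of 2997. The letters were not found in the 3′UTRs of Cd22 (1129 bases), Lyn (1669), Blk (556), Blnk (246) or Btk (400). A match was thus present in 4 of 9 members (44.4%), against 2139 of 10707 tested genes with an annotated 3′UTR (20.0%). These are descriptions of sequence, and no binding was measured.

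Expression is given as RPKM, reads per kilobase of gene scaled for sequencing depth. Because the file gives RPKM without counts, the depth of the libraries is unknown, and errors are the spread between tumors. RPKM summed to between 673931 and 787151 in the 6 tumors without Xist. Xist alone was 1240072 RPKM in deficient replicate 1, above the 692853 RPKM of all its other genes together. It was 1819 RPKM in deficient replicate 2 and 1585 to 2203 RPKM in the sufficient tumors, which are labelled male. The cause of the high Xist value in deficient replicate 1 was not tested. Deficient replicate 2 goes against its label as female, since it had the Y-linked Ddx3y at 24.6 RPKM, and the genotype differences of the members and of the pathway genes named with a p are also given without it. Mir146 is listed at 0 in every tumor and cannot check the genotypes. The B lineage label was borne out, with 6 B lineage markers, among them Pax5, Ebf1 and Cd37, summing to 827 to 1106 RPKM in the deficient tumors and 769 to 1199.6 RPKM in the sufficient tumors. The tumors were made into cell suspensions without a sort, so fewer B cells and less RNA per B cell cannot be told apart. Nothing in the labels says whether the mice were littermates, and p-values measure the spread between these 6 tumors only.

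All 9 members were detected in all 6 tumors and passed the filter on low values, with the lowest value, 3.36 RPKM, for Blk in sufficient replicate 1. Cd79b and then Cd79a had the highest RPKM in each tumor, and together they made up 72.2% to 82.1% of the members' summed RPKM. Across the file, Cd79b ranked between 122 and 194 and Cd79a between 173 and 234 by RPKM. The other members lay between 3.36 and 105 RPKM, and their order changed from tumor to tumor. Cd22 came next after the signal chains in both deficient tumors, and Plcg2, Syk or Btk came next in the sufficient tumors. The lowest member was Blnk in 3 tumors, Lyn in 2 and Blk in 1.

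**Figure D1:**
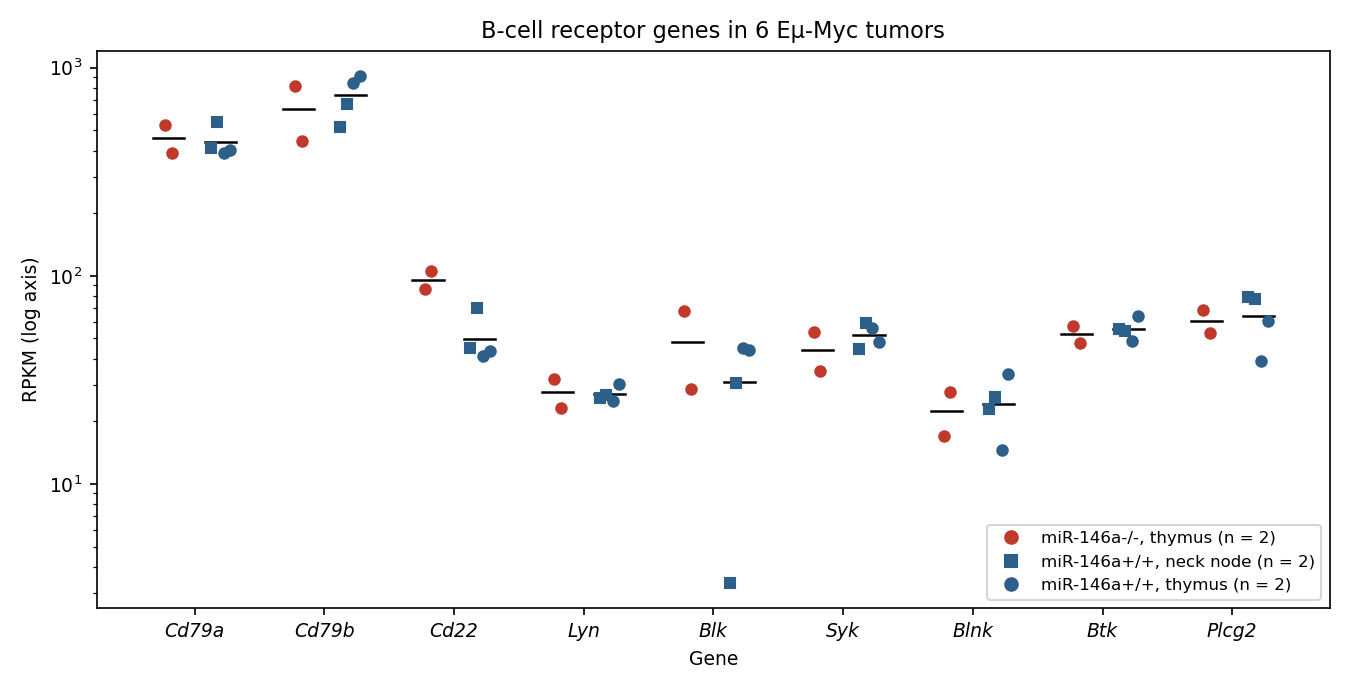
RPKM (log axis) of the 9 genes in each tumor, with miR-146a-deficient tumors in red and miR-146a-sufficient tumors in blue. Squares are neck node tumors, circles are thymic tumors, and a bar stands at each group mean. Cd22 is the only gene whose groups do not overlap, and 1 neck node tumor stands at 3.36 RPKM for Blk.

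The comparison of miR-146a-deficient with miR-146a-sufficient tumors asked whether loss of the microRNA went with another level of the receptor pathway. Of the 9 members, 0 passed an adjusted p of 0.05 in limma, against 0.0627% of the 12751 genes tested, and 1, Cd22, had an unadjusted p under 0.05 (3.62% of genes tested, 2.88% higher and 0.737% lower). Groups did not overlap for 1 of 9 members (11.1%), again Cd22, against 11.2% of genes tested (9.15% higher and 2.09% lower), so the share of members was near that of all genes. The median log2 fold change of the members was -0.04, against 0.13 for all genes tested. The shift of all genes was -0.01 after median-ratio scaling, so fold changes near 0.13 are to be read against it. All fold changes are on the log2(RPKM + 1) scale.

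Cd22, the inhibitory receptor, was the member that stood apart between genotypes. It lies on chromosome 7 from 30865402 to 30880342 on the minus strand (GRCm38). Cd22 measured 86.7 and 105 RPKM in the deficient tumors, against 44.8, 69.9, 41.1 and 43.5 RPKM in sufficient replicates 1 to 4. Both deficient tumors were above every sufficient tumor, and the neck node tumor of sufficient replicate 2 came closest to them. The means were 96.0 ± 13.1 RPKM (SD, n = 2) in the deficient tumors and 49.8 ± 13.5 RPKM (SD, n = 4) in the sufficient tumors, a ratio of 1.93. On the log2 scale the difference was 0.96 (standard error 0.26, 95% confidence interval 0.37 to 1.55), and limma gave it an unadjusted p of 0.00537 and an adjusted p of 0.893. Cd22 ranked 63 of 12751 genes by p, and the difference did not pass the threshold. The exact two-sided permutation test over the 15 splits of 2 and 4 tumors gave 0.133, which is the smallest p that it can give. The log2 fold change was 0.82 without deficient replicate 2, whose label is in doubt, and 1.16 among the 4 thymic tumors alone. Over 18 alternative settings it stayed between 0.76 and 1.16, with adjusted p-values of 0.412 to 1.00 from limma. An antisense gene, Gm29439, covers 9.50% of the exon bases of Cd22, and the library kit does not keep strand, so its reads would be counted with Cd22 or dropped.

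Cd22 was also set against the signal chains of the receptor within each tumor. The ratio of Cd22 to Cd79a was 0.163 and 0.271 in the deficient tumors, against 0.105 to 0.127 in the sufficient tumors. The ratio of Cd22 to Cd79b was 0.106 and 0.237 in the deficient tumors, against 0.0477 to 0.104 in the sufficient tumors. Both ratios were above the sufficient range in both deficient tumors, narrowly so for Cd79b in deficient replicate 1. Each gave 0.133 in the exact permutation test, the smallest p possible. The 3 genes with the pattern most like Cd22 over the 6 tumors were Cpsf2 (Pearson r = 0.998), Slc17a5 (r = 0.986) and Gm16726 (r = 0.983), as a description from 12751 candidates.

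The signal chains of the receptor showed no shift with genotype beyond the spread of the tumors. Cd79a, on chromosome 7 from 24897381 to 24902197 on the plus strand, had 532 and 388 RPKM in the deficient tumors, against 409.7, 550.4, 389.8 and 401 RPKM in the sufficient tumors. The deficient tumors spanned almost the whole sufficient range. Limma gave Cd79a a log2 fold change of 0.07 (95% confidence interval -0.52 to 0.66, adjusted p = 0.963), and it was 0.30 without deficient replicate 2. Cd79b, on chromosome 11 from 106311341 to 106314762 on the minus strand, had 819 and 445 RPKM in the deficient tumors, against 518, 672, 847 and 912 RPKM in the sufficient tumors. Deficient replicate 2 was the lowest tumor of all for Cd79b, while deficient replicate 1 lay inside the sufficient range. The log2 fold change of Cd79b was -0.25 (95% confidence interval -1.05 to 0.54, adjusted p = 0.901 from limma), and it was 0.19 without deficient replicate 2.

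Lyn and Blk, the SRC family kinases that phosphorylate the receptor first, had very different spreads. Lyn, on chromosome 4 from 3678115 to 3813122 on the plus strand, had 32.1 and 23.2 RPKM in the deficient tumors, against 26.0, 26.7, 25.1 and 30.2 RPKM in the sufficient tumors. Its highest tumor was 1.39 times its lowest, and only 9.94% of tested genes varied less on the log2 scale. The genotype difference of Lyn was 0.02 (95% confidence interval -0.46 to 0.50, adjusted p = 0.989 from limma), and 0.25 without deficient replicate 2. Exons of the lincRNA gene Gm26857, on the other strand, share 6.09% of its exon bases.

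Blk, a kinase expressed mainly in B-lineage cells, varied more between tumors than 98.9% of tested genes. It lies on chromosome 14 from 63372836 to 63417037 on the minus strand. Blk measured 68.0 and 28.5 RPKM in the deficient tumors, against 3.36, 30.5, 45.2 and 44.0 RPKM in the sufficient tumors. The highest tumor, deficient replicate 1, was 20.3 times the lowest, sufficient replicate 1 from a neck node, and no other member reached a range of 3-fold. The log2 fold change between genotypes was 0.96 (standard error 0.90, 95% confidence interval -1.09 to 3.02, adjusted p = 0.893 from limma). It was -0.02 among the 4 thymic tumors. Single libraries moved it by more than 1.5 times, to 0.16 without sufficient replicate 1, 0.35 without deficient replicate 1 and 1.58 without deficient replicate 2, and it was 1.11 without sufficient replicate 2, the other neck node tumor. The ratio of Blk to Lyn was 2.12 and 1.23 in the deficient tumors, against 0.129, 1.14, 1.80 and 1.46 in the sufficient tumors. Blk thus exceeded Lyn in RPKM in 5 of 6 tumors and was far below it in sufficient replicate 1.

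Sufficient replicate 1 was low in some other B-cell genes as well, and not in others. The scaffold Bank1, which binds Lyn, had 49.8 and 32.8 RPKM in the deficient tumors, against 9.84 RPKM in sufficient replicate 1 and 31.5 to 58.3 RPKM in the other sufficient tumors. The adaptor Lat2 had 34.4 and 28.6 RPKM in the deficient tumors, against 13.2 RPKM in sufficient replicate 1 and 24.0 to 30.5 RPKM in the rest of that group. Cd79a at 409.7, Syk at 44.3 and Btk at 55.4 RPKM in sufficient replicate 1 lay within the range of the other tumors. The summed RPKM of the 6 B lineage markers was 891 in that tumor, inside the range of 769 to 1199.6 over all tumors.

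The Syk, Blnk, Btk and Plcg2 steps, which turn receptor phosphorylation into calcium release, overlapped between genotypes for every gene. Syk, on chromosome 13 from 52583173 to 52648792 on the plus strand, had 53.5 and 34.8 RPKM in the deficient tumors, against 44.3, 59.4, 56.1 and 48.3 RPKM in the sufficient tumors. Deficient replicate 2 was the lowest of the 6 tumors for Syk, as it was for Cd79a, Cd79b, Lyn and Btk, 5 of the 9 members, and for the B lineage markers Ebf1 at 3.67 RPKM and Vpreb3 at 136 RPKM. For Syk the difference was -0.26 (95% confidence interval -0.80 to 0.29, adjusted p = 0.893 from limma), and 0.05 without deficient replicate 2. Blnk, the adaptor, on chromosome 19 from 40928927 to 40994535 on the minus strand, had 17.0 and 27.8 RPKM in the deficient tumors, against 22.8, 26.2, 14.5 and 33.6 RPKM in the sufficient tumors. Both the lowest and the highest tumor were thymic sufficient tumors of the same age. For Blnk it was -0.09 (95% confidence interval -0.87 to 0.69, adjusted p = 0.963 from limma), and -0.43 without deficient replicate 2.

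Btk, the TEC family kinase encoded on the X chromosome from 134542336 to 134583570 on the minus strand, was the steadiest member. It had 57.6 and 47.6 RPKM in the deficient tumors, against 55.4, 54.6, 48.5 and 64.1 RPKM in the sufficient tumors. The highest tumor was 1.35 times the lowest, and only 7.69% of tested genes varied less. Btk differed by -0.08 on the log2 scale (95% confidence interval -0.54 to 0.38, adjusted p = 0.941 from limma), and by 0.06 without deficient replicate 2. Plcg2, on chromosome 8 from 117498291 to 117635142 on the plus strand, had 68.5 and 53.3 RPKM in the deficient tumors, against 79.5, 77.4, 39.1 and 61.0 RPKM in the sufficient tumors. The deficient values lay between the neck node and the lowest thymic values of the sufficient group. Its log2 fold change was -0.04 (95% confidence interval -0.74 to 0.67, adjusted p = 0.987 from limma), 0.14 without deficient replicate 2 and 0.30 among thymic tumors alone. The genes whose pattern was most like that of Plcg2 over the 6 tumors included the NF-κB subunit gene Rel (r = 0.994) and Trp53 (r = 0.992), as a description.

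**Figure D2:**
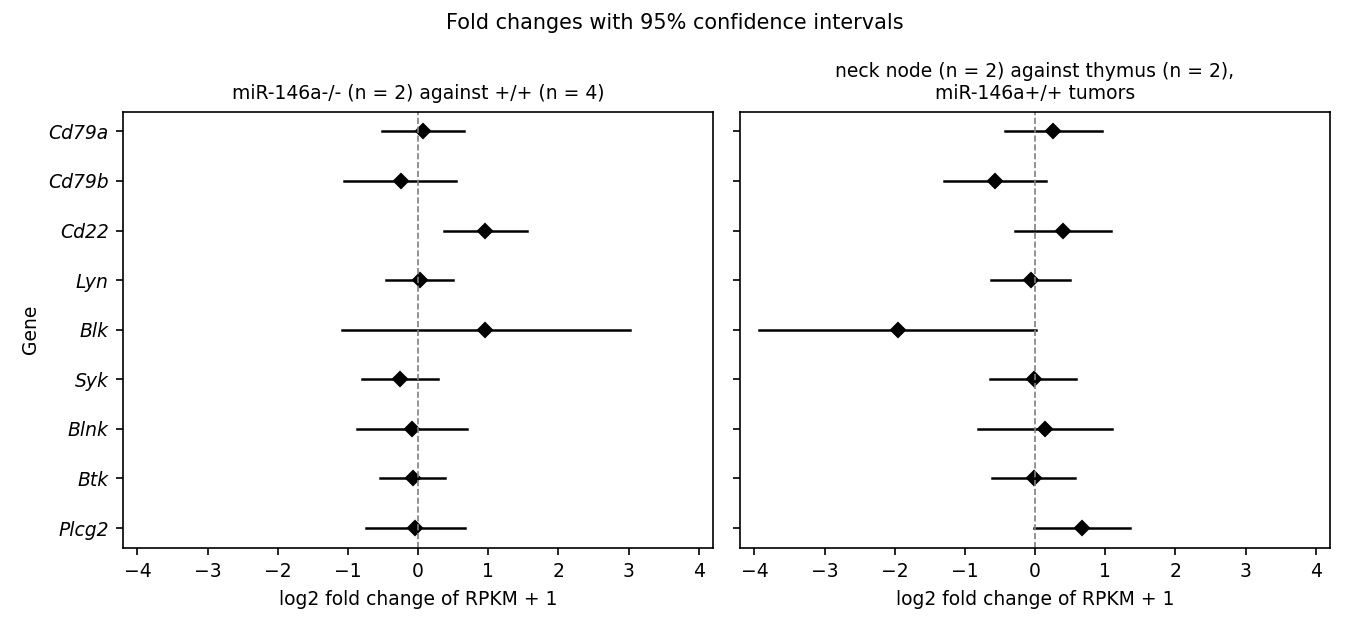
Log2 fold changes of RPKM + 1 (diamonds) with 95% confidence intervals from limma for the 9 genes, for miR-146a-deficient against miR-146a-sufficient tumors (left) and for neck node against thymic tumors of the sufficient group (right). Only the interval of Cd22 in the genotype comparison, 0.37 to 1.55, leaves out 0, and its adjusted p is 0.893.

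The 4 members with a seed match can be set beside the 5 without one, as a description. Their log2 fold changes were 0.07 for Cd79a, -0.25 for Cd79b, -0.26 for Syk and -0.04 for Plcg2. Those of the members without a match were 0.96 for Cd22 and for Blk, 0.02 for Lyn, -0.09 for Blnk and -0.08 for Btk. Groups overlapped for each of the 4 with a match and for 4 of the 5 without one, and 11.2% of all tested genes did not overlap.

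Tumor site was compared within the sufficient group, 2 neck node against 2 thymic tumors, because both deficient tumors were thymic. Of the 9 members, 0 passed an adjusted p of 0.05 in limma, against 0.155% of 12255 genes tested, and 0 had an unadjusted p under 0.05, against 7.87% of genes tested (5.21% higher and 2.65% lower). Sites did not overlap for 5 of 9 members (55.6%), with 3 higher and 2 lower in neck node tumors, against 40.4% of genes tested (27.9% higher and 12.6% lower). With 2 tumors on each side the exact permutation test cannot go below 0.333, which each of these 5 reached. As a median the members stood at -0.02 on the log2 scale, and all genes tested at 0.10.

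Plcg2 was higher and Cd79b lower in both neck node tumors than in both thymic sufficient tumors. Plcg2 averaged 78.5 ± 1.46 RPKM in neck node tumors and 50.0 ± 15.5 RPKM in thymic tumors (SD, n = 2 each), a log2 fold change of 0.67 (95% confidence interval -0.01 to 1.35, adjusted p = 0.628 from limma), which was 0.36 without sufficient replicate 3. Cd79b averaged 595 ± 109 RPKM in neck node tumors and 879.5 ± 46.0 RPKM in thymic tumors (SD, n = 2 each), a log2 fold change of -0.57 (95% confidence interval -1.30 to 0.15, adjusted p = 0.666 from limma). Cd79a went the other way by a smaller margin, with 409.7 and 550.4 RPKM in neck node tumors against 389.8 and 401 RPKM in thymic tumors.

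The ratio of the signal chains also separated the sites. Per length, Cd79a was 0.791 and 0.819 of Cd79b in the neck node tumors, against 0.460 and 0.440 in the thymic sufficient tumors. The means were 0.805 ± 0.0203 and 0.450 ± 0.0145 (SD, n = 2 each), with an exact permutation p of 0.333, the smallest possible. The thymic deficient tumors, at 0.650 and 0.873, both lay above the thymic sufficient tumors, 1 below the neck node values and 1 above them. The ratio of Plcg2 to Btk likewise separated the sites, at 1.44 and 1.42 in neck node tumors against 0.805 and 0.951 in thymic sufficient tumors, and the deficient tumors stood between them at 1.19 and 1.12.

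**Figure D3:**
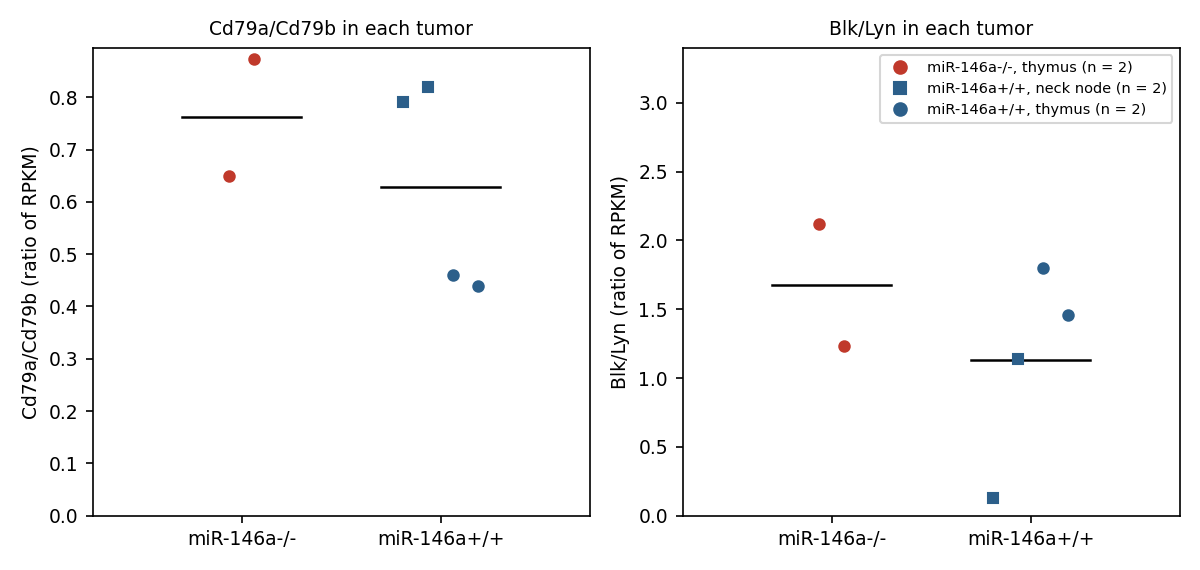
Ratio of RPKM of Cd79a to Cd79b (left) and of Blk to Lyn (right) in each tumor, miR-146a-deficient in red and miR-146a-sufficient in blue, where squares are neck node tumors, circles thymic tumors and bars group means. Neck node tumors stand at 0.791 and 0.819 and thymic sufficient tumors at 0.460 and 0.440 for Cd79a to Cd79b, and sufficient replicate 1 stands at 0.129 for Blk to Lyn.

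Blk was lower in both neck node tumors, at 3.36 and 30.5 RPKM, than in the thymic sufficient tumors, at 45.2 and 44.0 RPKM. On the log2 scale the difference was -1.96 (95% confidence interval -3.94 to 0.02, adjusted p = 0.628 from limma). This value was set by 1 library, since it was -0.53 without sufficient replicate 1 and -3.39 without sufficient replicate 2. Each of these fits left 1 neck node tumor. Cd22 had 44.8 and 69.9 RPKM in neck node tumors against 41.1 and 43.5 RPKM in thymic tumors, a log2 fold change of 0.40 (95% confidence interval -0.28 to 1.08, adjusted p = 0.726 from limma), which was 0.71 without sufficient replicate 1 and 0.08 without sufficient replicate 2. Lyn, Syk, Blnk and Btk overlapped between sites, with log2 fold changes between -0.06 and 0.14.

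Markers of other cell types moved with both comparisons, and Syk, Lyn, Btk and Plcg2 are genes that myeloid cells also use. The summed RPKM of 12 macrophage markers was 281 and 380.0 in the deficient tumors, against 152 to 319.5 in the sufficient tumors. Of the 11 tested, 7 had an unadjusted p under 0.05 in limma, all higher, against 2.88% of all genes tested. After adjustment 0 passed the threshold. C1qa, 1 of the 10 higher in fold change, had 22.9 and 27.7 RPKM in deficient tumors against 4.71 to 15.1 RPKM in sufficient tumors. Lyz2, the 1 lower, had 139 and 149 RPKM in deficient tumors against 93.3 to 271 RPKM in sufficient tumors. Of the 12, Vsig4 is listed at 0 in 1 sufficient tumor and none is at 0 elsewhere. The T and NK cell markers summed to 49.3 to 54.5 RPKM in the deficient tumors against 67.5 to 192 RPKM in the sufficient tumors, with all 13 tested markers lower in fold change. Neutrophil markers summed to 1636 and 1683 RPKM in the neck node tumors, against 206 and 237 RPKM in the thymic sufficient tumors and 108 and 276 RPKM in the deficient tumors. Between sites 6 of the 8 neutrophil markers passed an adjusted p of 0.05 in limma, all higher in neck node tumors, against 0.155% of genes tested. With no filter on low values 0 of all genes passed between sites. Pro-B and pre-B cell markers were mixed between sites, with 5 of 7 tested markers lower in neck node tumors and a median log2 fold change of -0.58. The largest difference was that of Rag1, at 0.640 and 3.63 RPKM in neck node tumors against 14.9 and 55.1 RPKM in thymic sufficient tumors. Sites did not overlap for 2 of the 7, both lower, against 12.6% of all genes tested. The 2 that went the other way were Cd93 (1.10) and Igll1 (0.47). The part of these markers in the values of Cd22, Plcg2 and the other members was not tested. Taken relative to the B lineage markers of each tumor, the genotype difference of Cd22 was 1.02, against 0.96 for the values as deposited. Those 6 markers differed little between genotypes (median log2 fold change -0.03), and this scaling takes no account of the other cell types.

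Other genes of the B-cell receptor pathway were taken from lists of 75 genes by role, of which 72 were found and 67 passed the filter. Between genotypes 0 of the 67 passed an adjusted p of 0.05 in limma, 4 were higher and 0 lower at an unadjusted p under 0.05 (2.88% higher and 0.737% lower over all genes tested), and the groups did not overlap for 7, all higher, against 9.15% of all tested genes not overlapping in that direction. Their median log2 fold change was 0.13, equal to that of all genes tested. Among the 4 were the immunoglobulin chains Ighm and Igkc and the phosphatase gene Ptpn6. These were also without overlap, as were Vav1 and Cbl.

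Ighm, the constant region of the IgM heavy chain, had 2272 and 2632 RPKM in the deficient tumors, against 1062, 1235, 909.8 and 1653 RPKM in the sufficient tumors. Igkc, the kappa light chain constant region, had 3523 and 2017 RPKM in the deficient tumors, against 1001, 1127, 851 and 1171 RPKM in the sufficient tumors. Both deficient tumors were above all sufficient tumors for each chain, and for Cd79a and Cd79b, which pair with them, the groups overlapped. The log2 fold changes were 1.04 for Ighm (unadjusted p = 0.0113, adjusted p = 0.893 from limma) and 1.37 for Igkc (unadjusted p = 0.00258, adjusted p = 0.818 from limma). Without deficient replicate 2 they were 0.94 and 1.77, and without deficient replicate 1 they were 1.15 and 0.97. Markers of pro-B and pre-B cells, the stages before a complete receptor, were lower in fold change for 6 of 7 tested genes, with a median of -0.91, and the receptor gene Il7r had 1.58 and 2.26 RPKM in the deficient tumors against 2.97 to 40.8 RPKM in the sufficient tumors. The part of this marker difference in the values of Ighm, Igkc and the members was not tested. The lambda constant region Iglc2 measured 8.56 and 13.0 RPKM in the deficient tumors, against 6.39 to 16.4 RPKM in 3 sufficient tumors and 248 RPKM in sufficient replicate 4. Reads can be split among near-identical lambda copies, so the value of Iglc2 is uncertain.

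Ptpn6 encodes SHP-1, the phosphatase that Cd22 recruits. It had 91.4 and 102 RPKM in the deficient tumors, against 51.3, 67.8, 52.3 and 37.9 RPKM in the sufficient tumors, with no overlap. The log2 fold change was 0.90 (standard error 0.25, unadjusted p = 0.00633, adjusted p = 0.893 from limma), and it was 0.82 without deficient replicate 2. Sufficient replicate 2 came closest to the deficient tumors, as it did for Cd22. The ratio of Ptpn6 to Ptprc, the CD45 phosphatase found on all white blood cells, was 1.79 and 1.84 in the deficient tumors, against 0.976 to 1.51 in the sufficient tumors. SHP-1 is also abundant in myeloid cells. Of the 11 tested macrophage markers 10 were higher in fold change in the deficient tumors, and all 8 neutrophil markers were lower (median -1.69). The part of these markers in the value of Ptpn6 was not tested. Fcgr2b, another inhibitory receptor, had 78.4 and 73.1 RPKM in the deficient tumors, against 30.0, 79.3, 52.9 and 25.4 RPKM in the sufficient tumors, and overlapped.

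**Figure D4:**
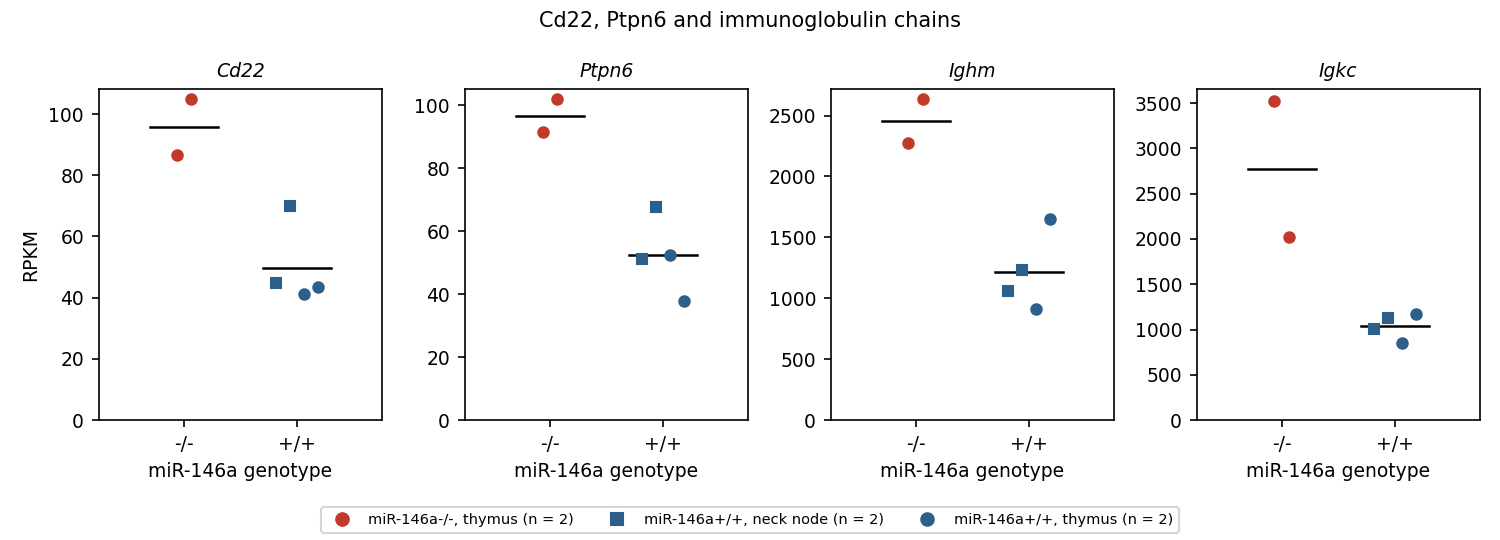
RPKM (axes from 0) of Cd22, Ptpn6, Ighm and Igkc in each tumor, miR-146a-deficient in red to the left and miR-146a-sufficient in blue, where squares are neck node tumors, circles thymic tumors and bars group means. Both deficient tumors lie above all 4 sufficient tumors for each gene, and no adjusted p is below 0.818.

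The inhibitor list as a whole held 16 tested genes, with 13 positive and 3 negative log2 fold changes and a median of 0.13, the value of all genes. Ptpn6 and the ubiquitin ligase Cbl were its 2 genes without overlap. The 9 other kinases had a median of -0.12, with 7 of 9 negative and none without overlap. Adaptors and exchange factors had a median of 0.16 over 12 genes, the PI3K branch 0.06 over 8 and the calcium, protein kinase C and RAS branch 0.18 over 16. Prkcb, the main protein kinase C gene of receptor signaling in B cells, had 35.7 and 4.79 RPKM in the deficient tumors against 14.8 to 29.4 RPKM in the sufficient tumors, so the deficient tumors lay on both sides of the sufficient range.

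**Figure D5:**
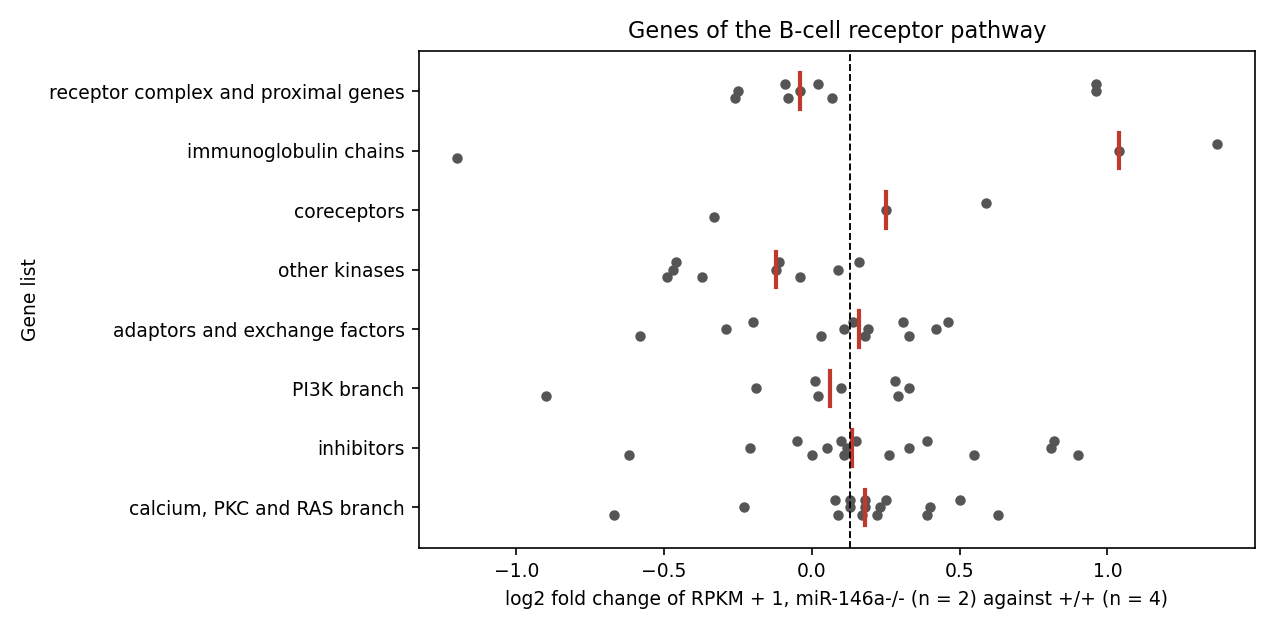
Log2 fold changes of RPKM + 1, miR-146a-deficient against miR-146a-sufficient, for the 9 genes and for each list of the wider pathway, 1 point per tested gene, with red bars at list medians and a dashed line at the median of all tested genes, 0.13. List medians run between -0.12 and 0.25, apart from the 3 immunoglobulin chains at 1.04.

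Between sites, 0 of the 67 pathway genes passed an adjusted p of 0.05 in limma, and 5 were higher and 1 lower in neck node tumors at an unadjusted p under 0.05 (5.21% higher and 2.65% lower over all genes tested). Sites did not overlap for 25 that were higher and 1 that was lower, the calcineurin subunit gene Ppp3ca, against 27.9% and 12.6% of all tested genes. Their median log2 fold change was 0.23, against 0.10 for all genes tested. The coreceptor gene Cd81 had 46.8 and 49.5 RPKM in neck node tumors against 29.6 and 22.5 RPKM in thymic sufficient tumors (log2 fold change 0.87, unadjusted p = 0.0106, adjusted p = 0.577 from limma). Of the 16 genes of the inhibitor list, Ptprc (CD45) among them, 9 were higher without overlap in neck node tumors, against 27.9% of all tested genes. Only 1 of the 16 had an unadjusted p under 0.05 in limma, and 0 passed after adjustment. Cd22, which is counted with the members, had the same order.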

How the data were processed

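RNA from 6 tumors was sequenced by the authors as single-end reads of 100 bases, 2 technical replicates a tumor, which were aligned with STAR 2.3.0 to mm10 (GRCm38), and HTSeq 0.5.4p3 counted them on Ensembl release 71. The deposited values are RPKM, made by the authors from those reads, and how is not given in the sources used here. Low values were whole multiples of a common step in only 32.2% to 38.6% of cases (tolerance 0.1), so depth was not recovered.

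RPKM were tested as log2(RPKM + 1) with limma 3.58.1 (trend) in R 4.3.3, over genes with at least 0.5 RPKM in at least 2 tumors, with Benjamini-Hochberg adjustment over all of them and a threshold of 0.05. Exact two-sided permutation tests used SciPy 1.17.1. The test was tested on simulated data in which genes varied independently, without differences of site, age, sex or cell makeup, so it does not cover these. The members and lists were chosen with earlier results of these data known, and no p is adjusted over them alone. Named genes are the members, the pathway list genes, the cell type markers and the 3 genes most like a member by Pearson correlation over 6 tumors. Groups and sites came from the labels. Seed matches were searched in the longest 3′UTR of each gene in GENCODE M21. Alternatives changed the pseudocount, filter, scaling, limma settings, tumors included, site covariate, replicate block and the reference to B lineage markers. Of the listed genes, 3 (Ighd, Iglc1 and Iglc3) were not analysed here. Some genes of the lists are not reported here.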

Additional observations from a re-analysis of the deposited data

Results flagged for a closer look

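In the miR-146a-sufficient group, sufficient replicate 2, a neck node tumor, stood far above the other 3 tumors for Cd79a, at 550.4 RPKM against 389.8 to 409.7 RPKM, with a gap of 0.876 of the group's range. The same tumor stood above the others for Cd22, at 69.9 RPKM against 41.1 to 44.8 RPKM, with a gap of 0.873 of the range. Both pass Dixon's 95% critical value for 4 samples, which chance passes in about 1 of 20 groups, and 18 genes and ratios were tried in this group. Without this tumor the genotype difference of Cd22 remained positive, as it did without each other tumor.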

How the results depend on the processing

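Cd22, Ighm, Igkc and Ptpn6 kept a positive genotype difference in all 18 alternatives, and 0 members passed the threshold between genotypes in any of them. Members near 0 changed sign. For Cd79a the value was -0.11 with median-ratio scaling and -0.06 with the replicate block, and for Cd79b 0.03 with the block. For Lyn it was -0.15 with median-ratio scaling, -0.09 with quantile normalization and -0.01 in thymic tumors or with site as a covariate. In those last settings Blk was -0.02 and Plcg2 0.30, and Plcg2 was 0.02 relative to B lineage markers. Leaving out 1 tumor at a time gave -0.16 to 0.30 for Cd79a, -0.69 to 0.19 for Cd79b, -0.21 to 0.25 for Lyn, 0.16 to 1.58 for Blk, 0.82 to 1.13 for Cd22, -0.56 to 0.05 for Syk, -0.43 to 0.25 for Blnk, -0.21 to 0.06 for Btk and -0.25 to 0.14 for Plcg2.

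Between sites Blnk was -0.00055 with median-ratio scaling and -0.04 relative to B lineage markers, where 1 member passed, Blk, at -2.14, as did the coreceptor gene Ifitm1 at 1.87 (adjusted p = 0.00523 from limma, against 2.04 and 0.129 for the values as deposited). Leaving out 1 tumor left 1 at a site, and gave -3.39 to -0.53 for Blk, 0.36 to 0.99 for Plcg2 and 0.08 to 0.71 for Cd22. The range was 0.05 to 0.48 for Cd79a, -0.76 to -0.39 for Cd79b and -0.23 to 0.19 for Syk. For Blnk it was -0.44 to 0.72, for Lyn -0.19 to 0.07 and for Btk -0.22 to 0.18.

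All genes called between genotypes numbered 8, and 3 in thymic tumors, 3 with the site covariate, 1 with the replicate block, 74 relative to B lineage markers and 4 to 9 without 1 tumor. Between sites they numbered 19, and 0 with no filter, 11 with quantile normalization, 163 relative to B lineage markers and 11 to 67 without 1 tumor. Relative to B lineage markers the median degrees of freedom of the test were 51004 for genotype, against 8.40, and 24510 for site, against 6.51. Those calls, Blk and Ifitm1 between sites included, therefore lean on a spread pooled over genes. In fits that left 1 tumor in a group, that tumor was assumed to vary like the others. The labels do not say that replicate numbers pair the tumors. The difference between replicates 1 and 2 correlated at 0.15 between genotypes over 12751 genes, and with the block Cd22 was 0.76. With 2 deficient tumors and no counts, changes of low genes are weakly measured.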
